A study of Mus musculus with 4 samples.

Results

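Malat1, Neat1, Kcnq1ot1 and Dleu2 are 4 long noncoding RNAs that are made and largely kept in the nucleus. They were chosen by gene name in a table of RNA-seq gene counts that held 41342 named genes, and all 4 were found in it and passed the minimum mean of 50 counts that 11286 genes passed. The counts came from 4 libraries of total RNA from splenic B cells, purified by taking out the splenocytes that carry CD43. All the mice were of the 129 strain and, per a legend of the study, males of 8 to 12 weeks, and both genotypes carried a deletion in the 3' regulatory region (3'RR), the block of enhancers downstream of the immunoglobulin heavy-chain (IgH) genes. ΔleftPAL mice lacked the fragment that holds the enhancers hs3a and hs1,2 and the inverted repeats between them, called IRIS. ΔIRIS mice lacked IRIS but kept hs1,2 and carried hs3a turned around, so the palindrome around hs1,2 was broken while the enhancers stayed. Both lines were derived from embryonic stem cells of the 129 strain, with the selection cassette removed by cre.

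For each genotype, 1 library was from resting cells taken fresh and 1 was from LPS-activated cells, which were cultured for 48 h with 5 µg per ml of lipopolysaccharide, a bacterial product that drives B cells to divide and to become plasmablasts. None of these libraries was from cells cultured without LPS. LPS and 48 h of culture therefore cannot be told apart, and the terms after LPS and LPS response stand for both together. The labels describe a pool of B cells from 4 animals per genotype, and the pooling is described differently elsewhere in the study. With 1 library per group, no difference within a genotype or between genotypes has a replicate check. The intervals of levels, shares and ratios are 95% exact Clopper-Pearson intervals. Those of differences between genotypes in the LPS response are 95% normal approximations from the counting standard error (SE). All cover counting error only, and each exact binomial test compares the reads of 2 libraries, not the genotypes or the treatments. The wt libraries were not analysed here.

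Malat1 and Neat1 are neighbouring unspliced RNAs. Malat1 gathers in nuclear speckles, where splicing factors are stored, and Neat1 is the RNA scaffold of paraspeckles, nuclear bodies that hold back certain proteins and RNAs. Malat1 and the long form of Neat1 are cut at the 3' end by RNase P, the enzyme that also trims tRNA precursors, and carry a triple helix in place of a poly(A) tail, while the short form of Neat1 is polyadenylated. Kcnq1ot1 is an imprinted RNA that runs antisense through an intron of Kcnq1 on the paternal chromosome and silences neighbouring genes there. Dleu2 is a spliced RNA whose primary transcript gives miR-15a and miR-16-1, microRNAs that restrain B cell growth and are often deleted in chronic lymphocytic leukaemia.

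The shared 3' end of Malat1 and Neat1 is shown because it sets these RNAs apart from the other members. The letters are from GENCODE release M21 transcripts on GRCm38, the same assembly as mm10, in the sense of the RNA. Each window holds 100 bases, and capitals mark every run of at least 10 bases that occurs in both windows. The Malat1 window is at chr19:5795982-5796081 on the minus strand, bases 6592 to 6691 of the annotated 6983, and the Neat1 window is at chr19:5824708-5824807 on the minus strand, the last bases of its 20771.
Malat1: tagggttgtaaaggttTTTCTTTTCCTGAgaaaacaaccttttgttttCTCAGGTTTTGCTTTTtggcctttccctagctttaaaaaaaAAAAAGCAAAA
Neat1: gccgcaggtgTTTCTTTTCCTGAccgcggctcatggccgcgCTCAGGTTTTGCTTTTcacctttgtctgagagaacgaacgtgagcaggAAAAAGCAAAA
The windows shared 3 runs of letters in the same order, of 13, 16 and 11 bases. The first 2 runs are rich in U and the last is rich in A, the parts that pair in the known triple helix. The last run, AAAAAGCAAAA, was found in 73 of 30254 long noncoding transcripts of the annotation, or 0.241%, from 71 genes. The Malat1 annotation goes on for 292 bases after its window, the stretch in which the small tRNA-like RNA cut from Malat1 lies. The gene counts hold no read positions, so the 3' ends themselves were not measured.

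The mature miRNAs of the 5' arms of the Dleu2 hairpins are shown because their common seed is what links Dleu2 to its known targets. They are RefSeq sequences on GRCm38.p6, with the seed (bases 2 to 8) in capitals. Both lie on the minus strand, miR-15a-5p at chr14:61632075-61632096 and miR-16-5p at chr14:61631936-61631957.
miR-15a-5p: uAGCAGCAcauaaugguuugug
miR-16-5p: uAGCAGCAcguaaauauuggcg
The seed AGCAGCA was the same in both, and it was found in 10 of 1679 mature mouse miRNAs of the table. In the Ensembl gene model both hairpins lie in an intron of Dleu2.

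The 4 libraries held between 23615496 and 29776108 counts, and TMM factors, which correct library sizes for composition, were between 0.970 and 1.03. The floor of 3 counts was 0.102 to 0.123 CPM, which is the count of a gene divided by the corrected library size. The 8 B cell markers were all present in every library, with a summed level of 4911 and 4065 CPM in resting ΔleftPAL and ΔIRIS cells and 2554 and 2604 CPM after LPS. Most markers of other cells were also detected at rest and lower after LPS, with exceptions. The 6 erythroid markers summed to 41305 and 28663 CPM at rest against 58.2 and 124 CPM after LPS, all 6 being at least 2-fold lower in both genotypes. The 7 myeloid and NK markers in the table summed to 290 and 386 CPM at rest against 6.87 and 16.1 CPM after LPS, where Itgam, at 140 and 450 reads against 321 and 304 at rest, made up most of what was left. The macrophage receptor Csf1r had 4127 and 6532 reads at rest against 8 and 5 after LPS. The 8 T cell markers summed to 55.8 and 46.1 CPM at rest against 18.6 and 17.6 CPM, with Cd3d, Cd3e and Cd3g at 0 reads in both LPS libraries and Lck still at 487 and 503 reads. In these bulk samples, fewer cells of a type and less RNA per cell cannot be told apart. Of the 8 genes listed to check the response, 5 were at least 2-fold higher after LPS in each genotype, among them the mitotic cyclin Ccnb1 with log2 ratios of 3.86 and 4.15 and the plasma cell factor Xbp1 with 2.65 and 2.01. Klf2, a factor of resting lymphocytes, was lower by log2 ratios of -3.83 and -2.94.

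**Figure D1:**
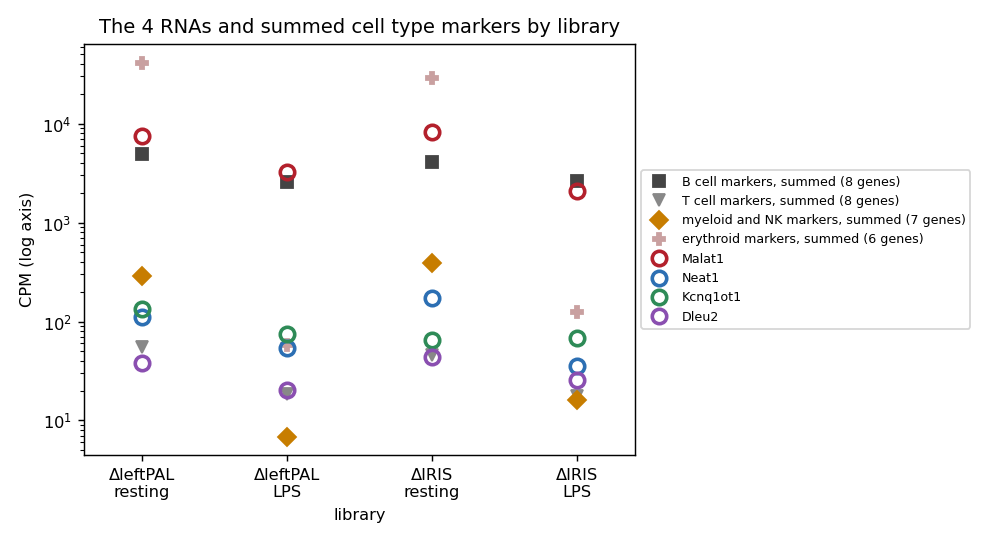
Level of the 4 RNAs (rings, CPM) and summed level of each list of cell type markers (filled symbols, CPM) in each library, on a log axis. The B cell, myeloid and NK, T cell and erythroid sums are all higher in both resting libraries than in both LPS libraries. Malat1, Neat1 and Dleu2 are too, while Kcnq1ot1 is highest in resting ΔleftPAL cells at 133 CPM.

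By counts, Malat1 was among the most abundant RNAs of every library. It had 181424 counts in ΔleftPAL cells at rest and 87129 after LPS, and 237895 in ΔIRIS cells at rest and 61309 after LPS. These were 0.768%, 0.314%, 0.829% and 0.206% of the library, and by counts Malat1 ranked 9, 16, 8 and 25 among all genes in the same order. Both resting libraries lay above both LPS libraries. On the CPM scale Malat1 stood at 7428, 3234, 8183 and 2092. It was thus 2.30-fold lower after LPS in ΔleftPAL cells, a log2 ratio of -1.20 (interval -1.21 to -1.19), and 3.91-fold lower in ΔIRIS cells, a log2 ratio of -1.97 (interval -1.98 to -1.96). ΔIRIS cells stood above ΔleftPAL cells at rest by a log2 ratio of 0.14 and below them after LPS by -0.63. The high counts make the counting error very small, which says nothing of how far pools of other mice would vary.

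The Malat1 locus is a single exon of 6983 bases at chr19:5795690-5802672 on the minus strand (mm10). The opposite-strand gene Gm20417 shares 425 bases with it and had 21, 8, 18 and 3 reads in the order ΔleftPAL resting, ΔleftPAL LPS, ΔIRIS resting, ΔIRIS LPS, the highest being 0.0116% of the Malat1 count (interval 0.00716 to 0.0177%). The small same-strand gene Gm27694, of 86 bases, lies inside Malat1 and had 0 reads in all 4 libraries. Its place is of note for the counts because a fragment that touches both genes is by default given to neither.

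Neat1, the paraspeckle scaffold, followed the direction of Malat1 at a much lower level. It had 2722 counts in ΔleftPAL cells at rest and 1454 after LPS, and 5022 in ΔIRIS cells at rest and 1047 after LPS. The levels were 111, 54.0, 173 and 35.7 CPM, so resting ΔIRIS cells were highest and LPS-activated ΔIRIS cells lowest. Neat1 was 2.06-fold lower after LPS in ΔleftPAL cells, a log2 ratio of -1.05 (interval -1.14 to -0.95), and 4.84-fold lower in ΔIRIS cells, a log2 ratio of -2.27 (interval -2.37 to -2.18). The ratio of ΔIRIS over ΔleftPAL changed sign between the conditions. It was 0.63 on the log2 scale at rest (interval 0.56 to 0.70, exact binomial p = 2.17e-78) and -0.60 after LPS (interval -0.71 to -0.48, exact binomial p = 1.28e-24). Of the 7 myeloid and NK markers, 2 were higher in resting ΔIRIS than in resting ΔleftPAL cells, counting any difference in CPM. These were Csf1r with 6532 against 4127 reads and Lyz2 with 4322 against 2374, and the other 5 were lower. After LPS the reads of ΔIRIS against ΔleftPAL cells were 5 against 8 for Csf1r, 14 against 35 for Lyz2 and 450 against 140 for Itgam. Their part in the Neat1 and Malat1 levels was not tested.

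Neat1 is annotated as 1 exon of 20771 bases at chr19:5824708-5845478 on the minus strand, and a short form that ends early shares its first bases. The gene count does not separate the short form from the long one that builds paraspeckles, and the transcript table held no transcript of the 4 genes. The small same-strand genes Gm27533, Gm27505 and Gm28006 inside Neat1 had 0 reads in all 4 libraries. By the default named above, a fragment that touches any of them and Neat1 is given to neither. Their 0 reads thus do not show that RNA was absent. They lie within the span of the annotated short form (chr19:5842307-5845476), and such fragments are missing from the Neat1 count. Gm27702, of 56 bases directly after the annotated end of Neat1, had 0, 0, 5 and 1 reads in the library order used above.

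Per length of the annotated exon, the gap between both neighbours was wide. Neat1 counts were divided by all 20771 bases, although an annotated short form (Neat1-202) has 3004. The share of Neat1 reads from the short form was not measured, and the level per kb and the gap depend on it. Malat1 stood at 1064, 463, 1172 and 300 CPM per kb of exon in the library order used above, and Neat1 at 5.37, 2.60, 8.32 and 1.72 CPM per kb. The ratio of these levels was 198, 178, 141 and 174. Among genes of 200 bases or more, Malat1 ranked 39, 136, 34 and 182 per kb in the same order. Malat1 made up between 94.2% and 96.7% of the reads of the 4 RNAs together, which summed to 0.797%, 0.328%, 0.857% and 0.219% of the library. There were 66.7, 59.9, 47.4 and 58.6 Malat1 reads per Neat1 read, a narrower range than that of either RNA alone. The distance between both patterns over the 4 libraries was 0.354 on the log2 scale (the Euclidean distance after centring each gene on its mean), against 1.01 to 1.75 for every other pair of members. With 4 points per gene this is a description only.

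**Figure D2:**
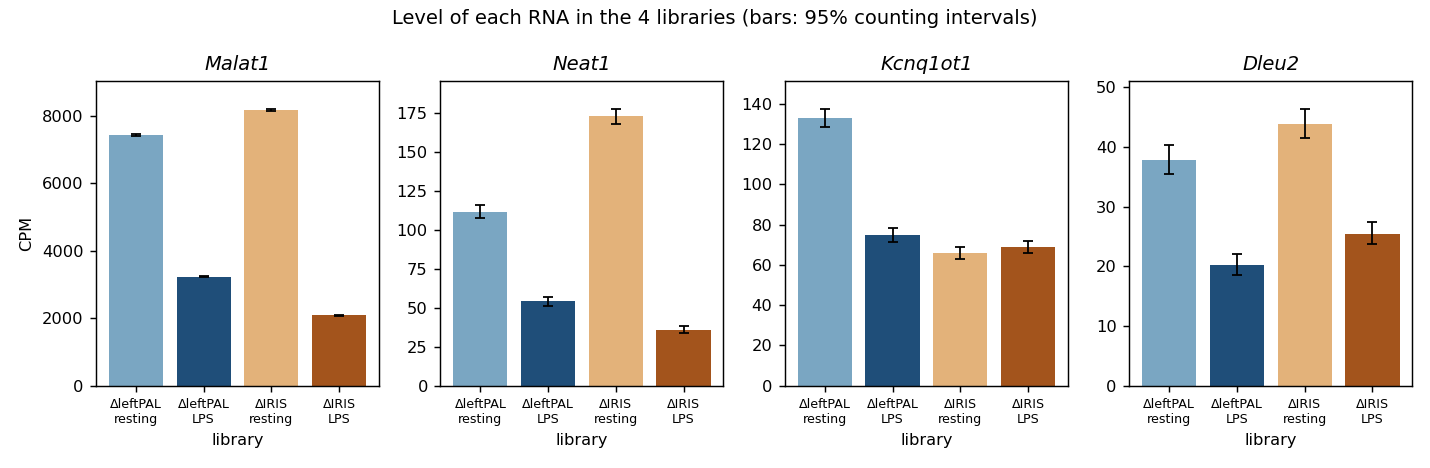
Level of each RNA in CPM (bars, axes starting at 0) in the 4 libraries, with 95% counting intervals. Malat1, Neat1 and Dleu2 are higher in both resting libraries than in both LPS libraries, whereas Kcnq1ot1 lies between 65.7 and 74.8 CPM in all libraries but resting ΔleftPAL.

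Kcnq1ot1 had another pattern. It had 3246 counts in ΔleftPAL cells at rest and 2015 after LPS, and 1909 in ΔIRIS cells at rest and 2012 after LPS. The levels in CPM were 133, 74.8, 65.7 and 68.6. The resting ΔleftPAL library thus stood apart above the other 3. In ΔleftPAL cells Kcnq1ot1 was 1.78-fold lower after LPS, a log2 ratio of -0.83 (interval -0.91 to -0.75). In ΔIRIS cells the log2 ratio was 0.06 (interval -0.03 to 0.16, exact binomial p = 0.170). With library sizes that leave out immunoglobulin, mitochondrial, erythroid and Rpph1 counts, added after seeing the data, this ratio was -0.11 (interval -0.20 to -0.02). At rest it was 2.02-fold lower in ΔIRIS than in ΔleftPAL cells, a log2 ratio of -1.02 (interval -1.10 to -0.94), and after LPS the log2 ratio was -0.12 (interval -0.21 to -0.03, exact binomial p = 0.00666). In order of level, the neighbours LPS-activated and resting ΔIRIS cells did not differ beyond counting error in the main analysis.

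Marker genes of other cells also differed between the resting libraries, in both directions. Any difference in CPM was counted here, however small. The median log2 ratio of all genes between these libraries was 0.00019, so lower and higher genes were about equally common. Lower in ΔIRIS cells were 6 of 8 T cell, 5 of 7 myeloid and NK and 5 of 6 erythroid markers, against 5 of 8 B cell markers. Some lay within counting error, such as Klrb1c with 24 reads in ΔleftPAL and 15 in ΔIRIS cells. Among those lower, the granulocyte gene S100a9 had 128 reads in resting ΔleftPAL and 24 in resting ΔIRIS cells, and the T cell receptor gene Cd3g had 50 and 11. Among those higher, Cd4 had 273 and 496 reads, Cd8a had 84 and 202, and Csf1r and Lyz2 were the myeloid genes named above, so the myeloid and NK sum was higher in ΔIRIS cells, at 386 against 290 CPM. The erythroid sum was 28663 against 41305 CPM and the T cell sum 46.1 against 55.8 CPM. Their part in the Kcnq1ot1 level was not tested.

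The Kcnq1ot1 model of the files is a single exon of 84395 bases at chr7:143212155-143296549 on the minus strand. GENCODE release M21 has the same start of transcription and an end farther on, at 143203458, so reads from that last stretch are not in the count. Per kb of exon Kcnq1ot1 was the lowest of the 4 RNAs in every library, at 1.57, 0.886, 0.778 and 0.813 CPM per kb. The gene Kcnq1, a potassium channel on the opposite strand, had 4, 0, 3 and 0 reads over all its exons, of which 121 bases lie within Kcnq1ot1, so these counts do not measure opposite-strand reads along the rest of Kcnq1ot1. The highest share was 0.157% of the Kcnq1ot1 count (interval 0.0324 to 0.458%), and the 0 reads after LPS in ΔleftPAL cells allow up to 0.183%.

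Dleu2 was the member with the fewest reads, and the one whose LPS response was nearest to equal in the genotypes. It had 924 counts in ΔleftPAL cells at rest and 545 after LPS, and 1277 in ΔIRIS cells at rest and 747 after LPS. In CPM these were 37.8, 20.2, 43.9 and 25.5. Both resting libraries lay above both LPS libraries. It was 1.87-fold lower after LPS in ΔleftPAL cells, a log2 ratio of -0.90 (interval -1.06 to -0.75), and 1.72-fold lower in ΔIRIS cells, a log2 ratio of -0.79 (interval -0.92 to -0.65). ΔIRIS cells were slightly higher in both conditions, by log2 ratios of 0.22 at rest (interval 0.09 to 0.34, exact binomial p = 0.000526) and 0.33 after LPS (interval 0.17 to 0.50, exact binomial p = 4.18e-05). Per kb of exon Dleu2 stood at 6.13, 3.28, 7.12 and 4.13 CPM per kb. With the full exon of Neat1 taken as its length, Dleu2 was above Neat1 in every library but resting ΔIRIS cells.

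Dleu2 spans chr14:61602839-61682373 on the minus strand with 11 exons of 6169 bases in all. Exon 5, the longest at 3293 bases, lies next to the intron that holds the miRNA hairpins. Reads assigned to the hairpins were few, with 14, 5, 17 and 9 for Mir15a and 17, 12, 23 and 19 for Mir16-1. These are pieces of longer RNA in a total RNA library and do not measure the mature miRNAs printed above. Gm27010, a same-strand gene within a Dleu2 intron, had 71, 19, 70 and 27 reads, also higher at rest in both genotypes. The opposite-strand neighbour Trim13, a ubiquitin ligase gene, had 17, 59, 26 and 59 reads, which is higher after LPS.

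In the 2 LPS comparisons, Malat1 and Neat1 were at least 2-fold lower in each genotype, that is 2 of 4 members, and 0 of 4 were at least 2-fold higher. Of all genes, 15.5% were at least 2-fold lower and 20.1% higher in ΔleftPAL cells, and 17.3% were lower and 21.6% higher in ΔIRIS cells. With 4 members, 2 calls are too few to set against these shares. Of the 215 tested genes that GENCODE lists as long noncoding, 30.7% were at least 2-fold lower and 9.3% higher in ΔleftPAL cells, and 37.2% lower and 12.1% higher in ΔIRIS cells. The median log2 ratio of these long noncoding genes was -0.62 and -0.54, against 0.12 and 0.13 for all genes. The direction of Malat1, Neat1 and Dleu2 was therefore also the more common one among long noncoding genes of these libraries. A lower ratio than that of Malat1 was found for 12.3% of all genes in ΔleftPAL cells and 7.06% in ΔIRIS cells, and for Neat1 these shares were 14.8% and 5.72%.

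Over both genotypes together, LPS-activated and resting libraries were compared by edgeR's quasi-likelihood test with the genotype as a block, a fit added after seeing the data that has 1 residual degree of freedom per gene, so that its estimate of error is largely shared among genes. Of the 4 members 3 were lower after LPS with adjusted p under 0.05, against 27.9% of all genes lower and 36.4% higher, and 0 were higher. The log2 ratio was -1.58 for Malat1 (adjusted p = 0.00202), -1.66 for Neat1 (adjusted p = 0.00575) and -0.84 for Dleu2 (adjusted p = 0.00330), each lower in 2 of 2 genotypes. For Kcnq1ot1 it was -0.38 (adjusted p = 0.196), lower in 1 of 2.

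Between genotypes at rest, 1 of 4 members, Kcnq1ot1, was at least 2-fold lower in ΔIRIS cells, against 1.02% of all genes, and 0 were at least 2-fold higher, against 1.83%. Only 0.966% of genes had a lower ratio than Kcnq1ot1. Its ratio lay just past the 2-fold line, and the call depended on the scaling. With library sizes that leave out immunoglobulin, mitochondrial, erythroid and Rpph1 counts, an alternative added after seeing the data, it was -0.97 on the log2 scale. With DESeq2 size factors it was -1.002 without the prior of 0.5 CPM used for calls, which makes ratios smaller. Between genotypes after LPS, 0 of 4 members were at least 2-fold apart, against 1.41% of all genes lower and 0.567% higher in ΔIRIS cells. In this narrow distribution 3.93% of genes had a lower ratio than Malat1, 4.47% than Neat1 and 92.4% than Dleu2. At rest, 94.2% of genes had a lower ratio than Neat1.

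**Figure D3:**
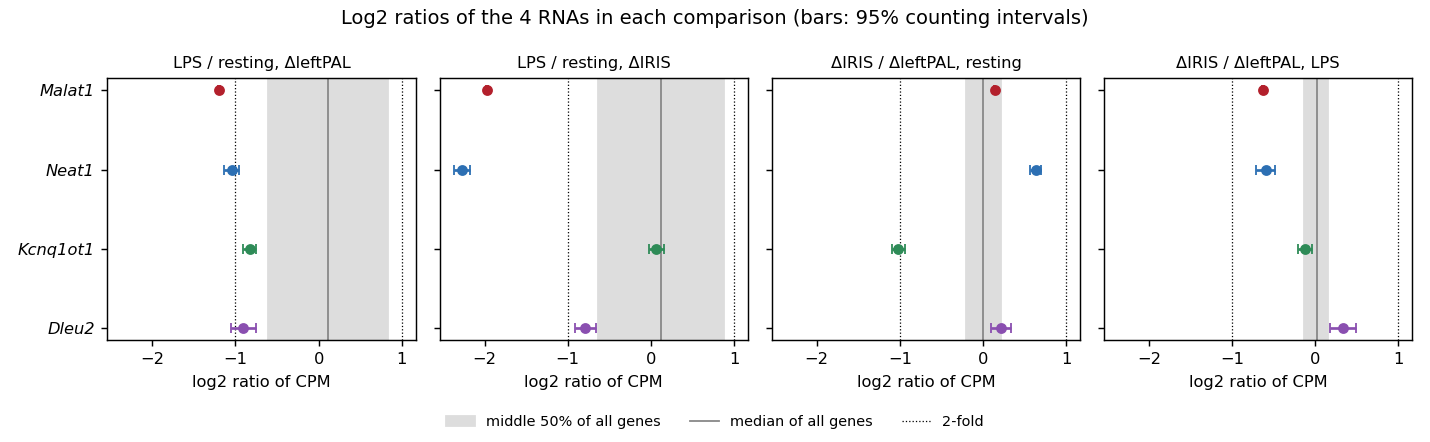
Log2 ratio of CPM for each RNA in the 4 comparisons (points) with 95% counting intervals, the middle 50% of all 11286 genes (grey band) and the 2-fold lines (dotted). Malat1 and Neat1 lie beyond the lower 2-fold line in both LPS comparisons, Kcnq1ot1 at rest between genotypes, and no RNA lies beyond a 2-fold line between the LPS libraries.

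The LPS responses differed between genotypes by more than counting error (95% intervals) for 3 of the 4 RNAs, against 49.6% of the 11163 genes at the same minimum with reads in every library, so a difference of this kind was common among all genes. The log2 response of ΔIRIS minus that of ΔleftPAL cells was -0.77 for Malat1 (counting SE 0.0088), -1.23 for Neat1 (counting SE 0.068) and 0.89 for Kcnq1ot1 (counting SE 0.062). For Dleu2 it was 0.12 (counting SE 0.10), with an interval of -0.08 to 0.32 that holds 0. Malat1 and Neat1 thus had the larger decrease in ΔIRIS cells. Kcnq1ot1 was lower after LPS in ΔleftPAL cells, and its ratio in ΔIRIS cells was within counting error of 0 in the main analysis. With 1 library per group these differences were not tested against the variation between mice.

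**Figure D4:**
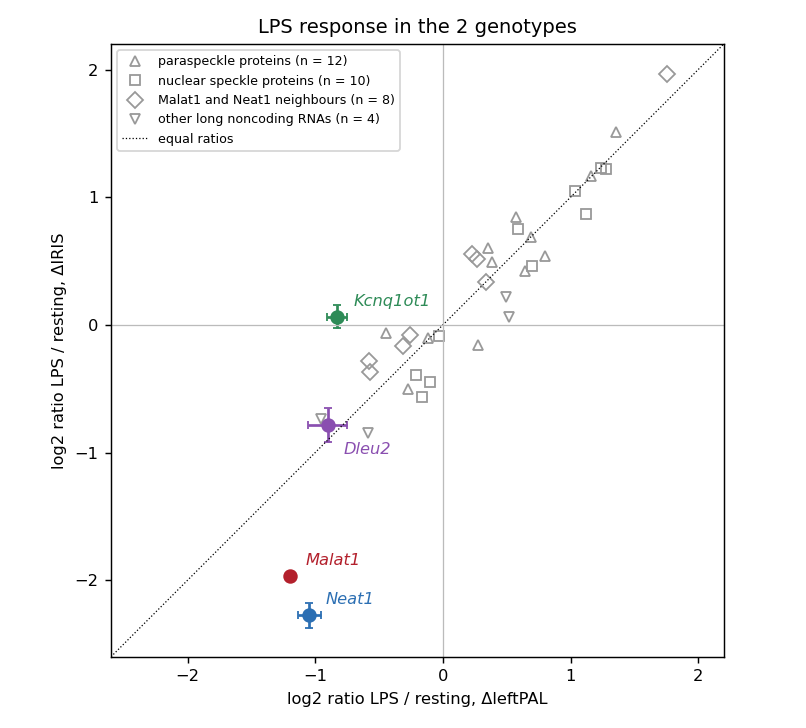
LPS response (log2 ratio to the resting library) of ΔIRIS cells against that of ΔleftPAL cells for the 4 RNAs (coloured, with 95% counting intervals) and for the genes of 4 lists (grey symbols). Malat1 and Neat1 lie below the line of equal ratios, Kcnq1ot1 above it and Dleu2 next to it.

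Genes that work with these RNAs were taken from fixed lists. The shares of all genes to set beside each count after LPS are those given above, 20.1% higher and 15.5% lower in ΔleftPAL cells and 21.6% higher and 17.3% lower in ΔIRIS cells, and the medians of all genes are 0.12 and 0.13. Of 12 listed proteins of paraspeckles, 2 were at least 2-fold higher after LPS in both genotypes and 0 were lower, the higher share being close to that of all genes, and the median log2 ratio was 0.48 in ΔleftPAL and 0.52 in ΔIRIS cells. Those higher were Nono, a core paraspeckle protein, with log2 ratios of 1.16 and 1.17, and Nudt21, a subunit of the 3' end cleavage factor CFIm, with 1.36 and 1.51. Sfpq, the partner of Nono, was lower, with log2 ratios of -0.28 and -0.51.

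Among 10 nuclear speckle proteins, 4 were at least 2-fold higher in ΔleftPAL and 3 in ΔIRIS cells, and 0 were lower, against 20.1% and 21.6% of all genes higher and 15.5% and 17.3% lower. With 10 genes, 3 is close to the share of all genes. The splicing factors Srsf1 and Srsf2 had log2 ratios of 1.03 and 1.24 in ΔleftPAL and 1.05 and 1.23 in ΔIRIS cells, and Rnps1, a part of the exon junction complex, had 1.28 and 1.22. Pnn, a speckle protein, had 1.12 in ΔleftPAL and 0.86 in ΔIRIS cells. Son, the scaffold protein of speckles, had -0.21 and -0.39. The median of the list was 0.64 and 0.60, above that of all genes.

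Of the 11 tested genes of RNase P and of the tRNA 3' end nuclease Elac2, which makes the final cut of the Malat1 small RNA, 4 were at least 2-fold higher in ΔleftPAL and 6 in ΔIRIS cells, and 0 were lower. Pop1, the largest protein subunit of RNase P, had log2 ratios of 2.17 and 2.67, Rpp30 had 1.57 and 1.41, and Elac2 had 0.93 and 1.34. Rpph1, the RNA of the enzyme, had 270915, 271857, 201412 and 272584 counts, log2 ratios of -0.14 in ΔleftPAL and 0.42 in ΔIRIS cells. It was thus on opposite sides of its resting level in the genotypes, and under 2-fold apart in both.

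The tested genes that flank Malat1 and Neat1 on chromosome 19 were mostly within 2-fold. Of 11 listed, 8 were tested. Only Pola2, a subunit of the DNA polymerase that starts replication, was at least 2-fold higher after LPS, with log2 ratios of 1.75 and 1.96, and 0 were lower. Among those under the minimum count, Cdc42ep2 had 58 reads at rest and 5 after LPS in ΔleftPAL cells, and 93 and 4 in ΔIRIS cells. Tigd3 went the other way, with 25 and 57 reads in ΔleftPAL and 26 and 80 in ΔIRIS cells. Rela, an NF-κB subunit, had log2 ratios of -0.57 and -0.37. The median of the list was -0.02 and 0.13.

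In the Kcnq1 imprinted domain, 6 of 12 genes were tested, of which 2 were at least 2-fold higher and 2 lower after LPS in each genotype, against 20.1% and 21.6% of all genes higher and 15.5% and 17.3% lower. Cars, a tRNA synthetase gene, had log2 ratios of 1.37 and 1.29, and Tssc4 had 1.52 and 2.02. Osbpl5, a lipid transfer protein gene, had -1.68 and -1.22, and Tspan32, a tetraspanin of blood cells, had -1.98 and -1.11. Phlda2 and Ascl2, which are silenced on the paternal chromosome in placenta, were at 0 reads in all 4 libraries. Between genotypes at rest, where Kcnq1ot1 was lower in ΔIRIS cells, 0 of the 6 were 2-fold apart, against 1.02% of all genes lower and 1.83% higher, and the median log2 ratio was -0.28. The median of all genes was 0.00019. Their lower quartile of -0.20 is that of single genes and gives no spread for a median of 6. Tspan32 had a log2 ratio of -0.75, Tssc4 -0.68 and Osbpl5 -0.52. The remaining tested genes had -0.06 (Nap1l4), 0.05 (Cd81) and 0.24 (Cars), so the domain did not move in one direction.

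Around Dleu2, 5 of 10 listed genes were tested, and Rnaseh2b, a subunit of RNase H2, and Kpna3, an importin, were at least 2-fold higher after LPS in both genotypes. Their log2 ratios were 2.08 and 1.33 in ΔleftPAL and 2.12 and 1.29 in ΔIRIS cells, the opposite direction to Dleu2. Of 10 known targets of miR-15 and miR-16, 7 were at least 2-fold higher and 1 lower in each genotype, against 20.1% and 21.6% of all genes higher and 15.5% and 17.3% lower. Among the higher ones were the cell cycle genes Ccnd2 (2.92 and 2.79), Ccne1 (3.34 and 3.63) and Chek1 (3.36 and 2.83, all log2 ratios in ΔleftPAL and ΔIRIS cells). The lower one was Ccnd1, with 479 and 1058 reads at rest and 1 and 1 after LPS. With kallisto estimated counts its log2 ratios were -4.75 in ΔleftPAL and -5.61 in ΔIRIS cells, against -9.05 and -10.06 from the gene counts, so the size of its decrease depended on the counting. Bcl2, the survival gene first tied to these miRNAs, had log2 ratios of -0.15 and -0.16, and of -0.050 and -0.014 with kallisto estimated counts, within counting error of 0. The median of the targets was 1.62 and 1.44. Many of the targets are cell cycle genes, and the mitotic cyclin Ccnb1, not a listed target, had log2 ratios of 3.86 and 4.15. The part of Dleu2, of its miRNAs or of cell division in these ratios was not tested.

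**Figure D5:**
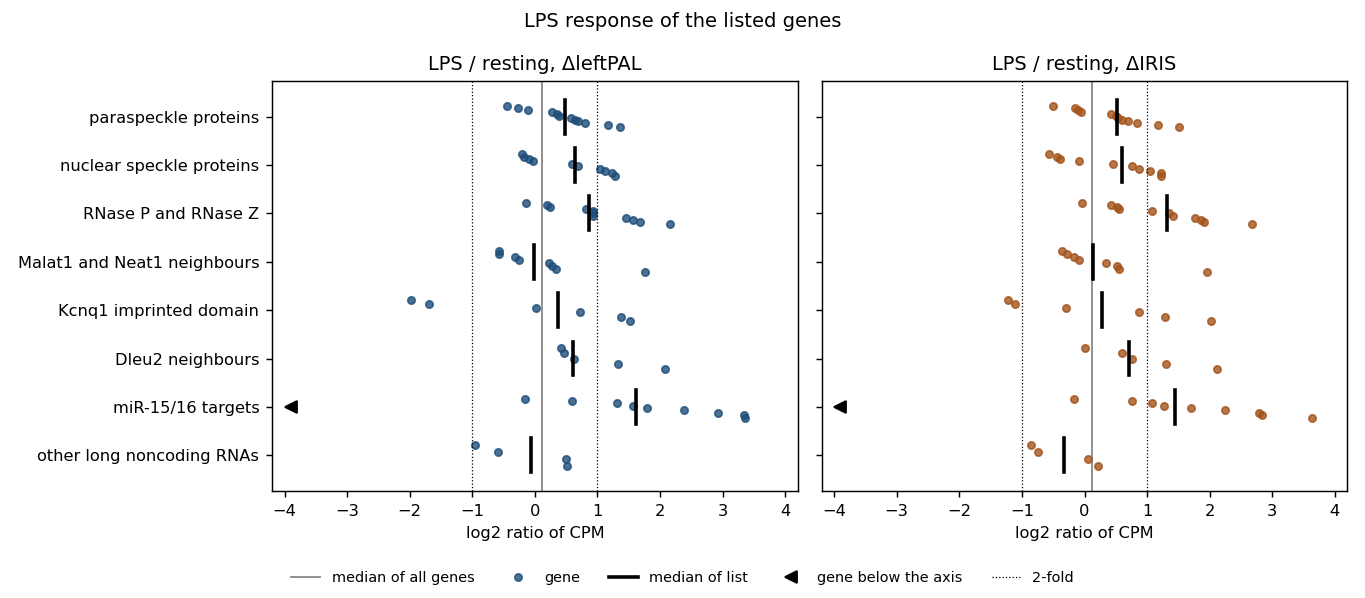
Log2 ratio of LPS over resting for each tested gene of 8 lists (points), the median of each list (black bars), the median of all genes (grey line) and the 2-fold lines (dotted), in ΔleftPAL (left) and ΔIRIS cells (right). Ccnd1 lies below the axis in both panels and is drawn as a triangle at its edge, and 7 of the 10 miR-15/16 targets lie beyond the upper 2-fold line in each.

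Among other long noncoding RNAs, 9 of 12 listed were in the table and 4 were tested, of which 0 were at least 2-fold apart in either genotype. Tug1, a nuclear RNA of many tissues, had 2749 and 2021 counts in ΔleftPAL and 4594 and 2568 in ΔIRIS cells at rest and after LPS, log2 ratios of -0.59 and -0.85. Ftx, from the X-inactivation centre, had log2 ratios of -0.95 and -0.74. Pvt1, next to Myc, had 0.49 and 0.22, and Mir17hg, the host of the miR-17 cluster, had 0.52 and 0.06 (in ΔIRIS cells -0.11 with the reduced library sizes named above).

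The genes nearest to each RNA in pattern were found over the 4 libraries by the same distance, with immunoglobulin segments left out. Nearest to Malat1 were Fam46c, at a distance of 0.076, Med13l at 0.079 and Gm8750 at 0.108. The decrease of Gm8750 after LPS, by log2 ratios of -1.44 and -2.76 in ΔleftPAL and ΔIRIS cells, was not seen in kallisto estimated counts, at -0.18 and -0.02. Fam46c, which stabilises mRNAs in plasma cells, had 9411, 4576, 13075 and 3367 counts in the library order used above. Nearest to Neat1 was another long noncoding RNA, Mir22hg, the host of miR-22, with 219, 101, 418 and 72 counts at a distance of 0.107, followed by Slco5a1 at 0.153 and Acot2 at 0.162. For Kcnq1ot1 they were the small nucleolar RNA gene Gm25291 at 0.135, Gimap9 at 0.144 and Snx32 at 0.162. For Dleu2 they were Picalm, a clathrin assembly gene, at 0.038, the small nucleolar RNA gene Gm22422 at 0.091 and Nfe2l2 at 0.101. These likenesses rest on 4 libraries and are a description only.

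The promoters of Malat1 and Kcnq1ot1 are shown because these RNAs had unlike patterns. They are RefSeq windows on GRCm38.p6 of 300 bases, 250 before and 50 after the start, in the sense of the RNA. Matches on either strand to CCAAT or TGACGT, the cores of the NF-Y and CREB/ATF motifs, are in capitals. Malat1 is at chr19:5802623-5802922 and Kcnq1ot1 at chr7:143296498-143296797, both on the minus strand.
Malat1: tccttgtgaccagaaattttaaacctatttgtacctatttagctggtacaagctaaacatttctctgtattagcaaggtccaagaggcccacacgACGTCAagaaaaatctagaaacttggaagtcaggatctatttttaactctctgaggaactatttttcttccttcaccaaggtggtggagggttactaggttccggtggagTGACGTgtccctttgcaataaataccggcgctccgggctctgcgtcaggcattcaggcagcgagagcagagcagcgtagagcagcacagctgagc
Kcnq1ot1: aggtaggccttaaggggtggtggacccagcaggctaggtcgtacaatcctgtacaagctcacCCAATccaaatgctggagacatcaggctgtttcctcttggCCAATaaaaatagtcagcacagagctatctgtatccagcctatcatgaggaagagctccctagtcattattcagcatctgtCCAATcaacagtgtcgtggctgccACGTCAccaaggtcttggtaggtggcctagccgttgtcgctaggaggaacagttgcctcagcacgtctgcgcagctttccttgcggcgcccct
Malat1 held 2 matches to TGACGT and 0 to CCAAT, and Kcnq1ot1 held 1 and 3. Of 32851 promoter windows of the same length, 7.51% held TGACGT and 37.4% held CCAAT. The Dleu2 window held 6 matches to GGGCGG, the core of the Sp1 motif, 2 of them overlapping, and 1 to the E-box CACGTG, which 35.7% and 7.15% of windows held, and its GC content was 69.0% against 47.0% for Malat1 and 53.3% for Kcnq1ot1. These are matches of letters, and binding was not measured in these libraries.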

How the data were processed

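Total RNA of CD43-depleted splenocytes was depleted of ribosomal RNA, made into stranded libraries and sequenced as paired reads of 150 nt. The authors mapped reads with STAR 2.4.0a to mm10. The deposited gene table holds raw fragment counts that the authors made with featureCounts (Subread 1.4.6-p1) on Ensembl release 77, by gene name, with strand-specific counting and with reads of several places counted at their primary place. Reads shared by near-identical copies are thus placed at one copy. The authors also deposited kallisto estimated counts per transcript, from kallisto 0.42.3 per the submitters' processing notes. These held 0 transcripts of the 4 genes, so neither isoforms nor estimated counts of the members are given, and these values served for the strand check and, after rounding to whole numbers, as an alternative for the other named genes and for counts over all genes. The TPM table was not used here. The row of genes without a name, 0.0088 to 0.026% of counts, was left out.

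Counts were scaled to CPM with TMM effective library sizes (edgeR 4.0.16, R 4.3.3). The counts lay on the strand of the genes, since their median ratio to the estimated counts was 0.985 to 0.988. The reads of a gene in 2 libraries were tested against the library sizes by an exact binomial test (conditional, two-sided), with 95% Clopper-Pearson intervals (Python 3.11.15, scipy 1.17.1, numpy 2.4.6, pandas 2.3.3), in 16 comparisons of members, for which no adjusted p is given. A term for each group would leave nothing to estimate the spread from, and the quasi-likelihood test of edgeR was run only for LPS against rest over both genotypes, with terms for genotype and condition and Benjamini-Hochberg adjustment over the 11286 genes, a test added after seeing the data. Genes at least 2-fold apart were counted as log2 ratios after adding 0.5 to the CPM, a scale on which low genes change less, in the 11286 genes whose mean count was 50 or more. Medians and shares over lists and over all genes are on that scale, and the log2 ratios of single genes are of CPM without a prior. GENCODE release M21 gave gene types for 10742 of the tested genes, and the shares of long noncoding genes were added after seeing the data. RefSeq promoter windows were found for 3 of the 4 members. The procedure was tested on simulated data.

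The members and the lists were chosen with earlier results of these data known. The named genes are the 4 members, the genes of the lists and the 3 genes nearest to each member in pattern. Genes that overlap or adjoin a member were named after their values were seen. Library sizes were also taken from total counts, from DESeq2 1.42.0 size factors and from TMM without immunoglobulin genes and members. Counts of genes were repeated on estimated counts, with other minimum counts and with a prior of 5 CPM. Library sizes without immunoglobulin, mitochondrial, erythroid and Rpph1 counts were added after seeing the data. The values of 1 listed gene are not reported here.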

Additional observations from a re-analysis of the deposited data

Results flagged for a closer look

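In the main analysis the LPS response of Kcnq1ot1 had opposite signs in the genotypes. The log2 ratios were -0.83 in ΔleftPAL and 0.06 in ΔIRIS cells, a difference of 0.89, and the ratio in ΔIRIS cells was within counting error of 0. With library sizes without immunoglobulin, mitochondrial, erythroid and Rpph1 counts, the ratios were -0.96 in ΔleftPAL and -0.11 in ΔIRIS cells (interval -0.20 to -0.02), so the signs were alike. The genes nearest to Kcnq1ot1 in pattern had opposite signs in the main analysis too, as their choice makes likely. The differences were 0.81 for Gm25291, 0.77 for Gimap9 and 0.84 for Snx32. With the same reduced sizes each of these genes was lower after LPS in ΔIRIS cells, as was Snx32 with total counts and with DESeq2 size factors. Rpph1, the RNA of RNase P, also had opposite directions, with a difference of 0.56. These differences were not tested, since each group holds 1 library.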

How the results depend on the processing

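The 4 members' log2 ratios were recomputed with 4 other library scalings, 64 values in all, of which 63 kept their direction and their side of p = 0.05 in the exact binomial test. The exception was Kcnq1ot1 after LPS in ΔIRIS cells, at -0.11 (exact binomial p = 0.0203) with library sizes without immunoglobulin, mitochondrial, erythroid and Rpph1 counts. With the same sizes Mir17hg was at -0.11, Gm25291 at -0.083, Gimap9 at -0.059 and Snx32 at -0.15 in ΔIRIS cells, and Snx32 was at -0.021 with total counts and -0.0070 with DESeq2 size factors. These sizes shifted the median of all genes after LPS from 0.12 to -0.01 in ΔleftPAL and from 0.13 to -0.04 in ΔIRIS cells. They also put Dleu2 in ΔleftPAL cells past 2-fold, at -1.04, and Kcnq1ot1 between resting libraries inside it, at -0.97. With DESeq2 size factors the latter ratio was -1.002, without the prior of 0.5 CPM used for calls. The difference between genotypes in the Malat1 response was -0.72 with total counts, -0.80 with TMM without immunoglobulin genes and members and -0.80 with the reduced sizes. For list genes and genes near in pattern, also computed from kallisto estimated counts, 442 of 454 values kept direction and side. Besides the reversed values above, 5 lost their call with estimated counts, Gm8750 at -0.18 and -0.02 and Bcl2 at -0.050 and -0.014 in ΔleftPAL and ΔIRIS cells and Srrm1 at -0.035 in ΔleftPAL cells, and Gimap9 in ΔIRIS cells gained one, at 0.26 (exact binomial p = 0.00148). The cause was not tested.

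Counts of genes at least 2-fold apart depended on the minimum count and the prior. After LPS, 1148 genes were lower in ΔleftPAL cells with a minimum mean of 200 counts (1748 in the main analysis), and with a prior of 5 CPM 1072 were lower in ΔleftPAL and 1296 in ΔIRIS cells. Between genotypes at rest, 58 were lower and 124 higher in ΔIRIS cells with the minimum of 200, 37 and 91 with the prior of 5 CPM, and 179 lower with no minimum, against 115 and 207. After LPS they were 91 and 37 with the minimum of 200, and 70 and 13 with the prior of 5 CPM, against 159 and 64. The reduced sizes moved the median after LPS, so 51.5% of the genes 2-fold apart were lower in ΔleftPAL cells, against 43.5% in the main analysis, and 53.7% in ΔIRIS cells, against 44.5%.

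No replicate numbers pair these libraries, since each group holds 1, and no library was left out. The genotype served as a block for LPS against rest in the fit over both genotypes. Without the genotype as a block the log2 ratios were -1.55 for Malat1, -1.66 for Neat1, -0.47 for Kcnq1ot1 and -0.84 for Dleu2, with the same calls, and 3074 genes were called lower and 3998 higher, against 3148 and 4105 with it. The kallisto alternative and the description of isoforms were not run for the members, of which that table holds 0 transcripts. Depth limits Dleu2 most, with 545 to 1277 counts.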
